A study of Sus scrofa domesticus with 36 samples.

Results

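Backfat libraries in which the gland-associated gene CPHL1 was high were compared with those in which it was low. The 18 subcutaneous backfat libraries of the series were ranked by CPM, a gene's share of all gene counts of its library scaled to 1000000, of CPHL1 (ENSSSCG00000025468). The 6 highest formed the high CPHL1 group and the 6 lowest the low CPHL1 group, so 12 of the 36 libraries of the series entered the comparison, and the 6 between them were kept aside. The groups come from a measured gene and not from a treatment, so CPHL1 itself is described and not tested, and calls for other genes describe what went with CPHL1 in these libraries.

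The growth protocol gives 1 commercial cross for all 18 pigs, Danbred 600 × Newsham NC32, whereas the breed label carries another NC number in each of the 36 samples, so that it differs even between the tissues of 1 pig. Each pig gave 1 library of backfat, taken between rib 8 and the last rib, and 1 of longissimus dorsi, a back muscle. The design text places sampling 3 weeks after weaning, whereas the sample labels give 16 to 17 days of age and the stage as weaning. The study drew 9 pigs from the slowest 10 percent for growth and 9 from the 60th to 70th percentile, and the labels used here do not say which pig was which. Pigs are named as in the sample titles. The high group was Sample_491, Sample_186, Sample_242, Sample_998, Sample_889 and Sample_391, and the low group was Sample_991, Sample_835, Sample_114, Sample_231, Sample_572 and Sample_176. Whether the groups differ in growth class, sow or litter cannot be told from these labels, and they name no treatment and no allele.

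Pig skin carries hair follicles with apocrine sweat glands and sebaceous glands, and the deep part of these appendages reaches toward the fat beneath the dermis. Gland ducts and coils are epithelium: cells held together by E-cadherin and desmosomes, resting on a basal layer that grips the basement membrane through laminins and hemidesmosomes, with contractile myoepithelial cells around the secretory coil. Adipocytes, fibroblasts, vessels and immune cells of fat lack most of these genes. CPHL1 is named for its likeness to ceruloplasmin and hephaestin, CHIA encodes acidic chitinase, and LTF encodes lactoferrin, an iron-binding protein of milk, tears and other gland secretions.

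Gene counts summed to between 4164449 and 4875484 per library in the high group and between 4120672 and 5373406 in the low group. Counts outside annotated genes made up 34.7% ± 2.30 in the high group and 34.0% ± 2.94 in the low group (SD, n = 6 each). In 5 of the 18 backfat libraries, KTN1, GOLGA4, CEP290 and the mitochondrial ND2 were all low: KTN1 lay between 21.2 and 42.6 CPM in them and between 160 and 290 CPM in the other 13. Sample_491, Sample_186, Sample_242 and Sample_391 of the high group and Sample_835 of the low group are these 5, so KTN1 averaged 84.5 ± 88.2 CPM in the high group and 199 ± 86.1 CPM in the low group. Main results are therefore also given without them, which leaves 2 high and 5 low libraries.

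CPHL1 ran from 912 to 1891 CPM (median 1166) in the high group and from 1.60 to 96.7 CPM (median 30.4) in the low group, and the highest library held 1182 times the level of the lowest. At the edges of the groups, Sample_391 was the last inside the high group at 912 CPM with Sample_659 just outside at 640 CPM, and Sample_991 was the first inside the low group at 96.7 CPM with Sample_735 just outside at 114.4 CPM. The low group was itself split, with 55.1 to 96.7 CPM in Sample_991, Sample_835 and Sample_114 and 1.60 to 5.71 CPM in Sample_231, Sample_572 and Sample_176.

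CHIA ran from 172 to 1552 CPM (median 635) in the high group and from 1.92 to 88.9 CPM (median 34.8) in the low group, and no library of either group reached into the other. Its log2 difference, high minus low, was 4.02 (SE 0.947), with an edgeR adjusted p of 0.0809 that missed the threshold of 0.05. LTF ran from 50.9 to 370 CPM (median 174) in the high group and from 1.21 to 17.1 CPM (median 5.65) in the low group. It was higher by 4.69 on the log2 scale (SE 0.763, adjusted p 0.0123), and its groups did not overlap either. The 3 genes did not keep 1 ratio: CHIA was 0.154 times CPHL1 in Sample_242 of the high group and 3.26 times CPHL1 in Sample_911 of the middle libraries. GLYATL2, an acyltransferase on the sebaceous list, followed the same split, with 51.2 to 598 CPM (median 295) in the high group and 1.43 to 47.8 CPM (median 16.3) in the low group (log2 difference 3.84, SE 0.897, adjusted p 0.0759).

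**Figure D1:**
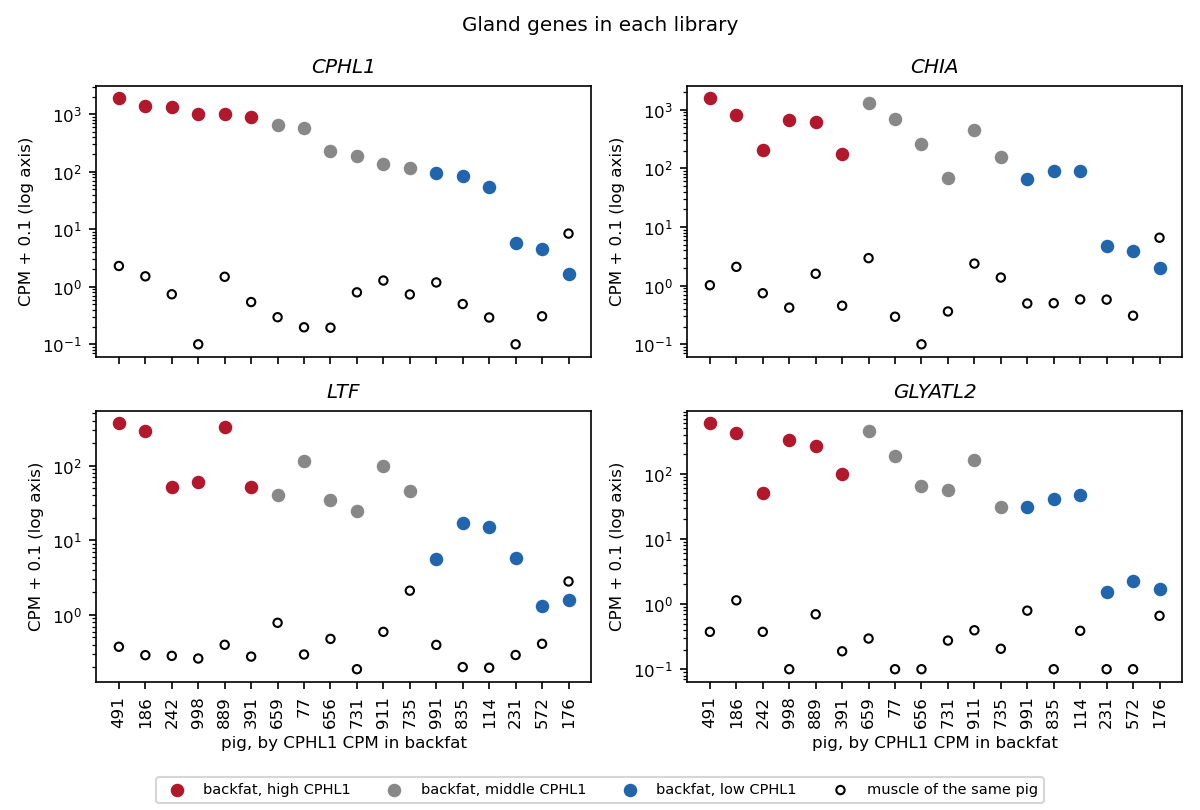
CPM plus 0.1 (log axis) of CPHL1, CHIA, LTF and GLYATL2 in each library, with pigs ordered by CPHL1 in backfat. Filled points are backfat, colored by CPHL1 group, and open points are muscle of the same pig; CHIA and LTF have no overlap between the high and low groups, and every backfat library of the high group lies above every muscle library.

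Across all genes, 130 of 12946 tested were higher in high CPHL1 backfat (1.0%) and 0 were lower (0.00%) at an adjusted p under 0.05 by edgeR's quasi-likelihood test. At an unadjusted p under 0.05 there were 629 higher and 387 lower, and DESeq2 called 206 higher and 11 lower. The 130 genes had a median log2 difference of 2.22 (0.47 to 5.76), against 0.02 over all genes tested, and 74 were at least 4-fold higher. In 75 of the 130 every high library lay above every low library, which held for 88 of all genes tested (0.680%). A symbol was found for 99 of them. Fewer cells of a type and less RNA per cell cannot be told apart in bulk tissue, for any gene below. The count fell to 74 genes without Sample_491, 78 without Sample_889 and 82 without Sample_998, and was 209 without Sample_391; 68 of the 130 passed in each of the 12 fits that left out 1 library.

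Without the 5 low-KTN1 libraries, 200 of 13741 genes were higher (1.46%) and 0 lower by edgeR, with 718 higher and 479 lower at an unadjusted p under 0.05. These 7 libraries are part of the 12, and 81 of the 130 genes passed there. The high libraries left in this fit, Sample_998 and Sample_889, had the highest summed CPM of 9 hair keratins of any backfat library. The sums were 888.6 and 683.6 CPM, against 1.92 to 13.8 CPM in the low libraries left. Whether a gene goes with CPHL1 or with hair keratins therefore cannot be told apart in this fit. With CPHL1 as a continuous measure over the 13 other libraries, 259 of 13775 genes went up with it (1.88%) and 19 went down, and 111 of the 130 were among those 259. With the KTN1 level as a covariate in the 12 libraries, only 8 genes passed, all of them among the 130, and GJB1, PKP3, FMO5, GREB1L, TRIM29, RNF128 and PAPSS2 were among the 8.

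Apart from the hair keratin KRT25, the largest differences among the tested named genes were those of SLC9A4, LTF, CRISP3, SERPINB5 and ATP13A4. LTF was joined by CRISP3, a secreted protein of exocrine glands, with 17.6 to 139 CPM (median 64.2) in the high group and 0.0952 to 9.60 CPM (median 1.51) in the low group. It was 4.54 higher on the log2 scale (SE 0.807, adjusted p 0.0170), and its groups did not overlap. SERPINB5, the serpin maspin of epithelial cells, averaged 38.3 ± 31.3 CPM in the high group and 1.73 ± 1.60 CPM in the low group, a log2 difference of 4.46 (SE 0.754, adjusted p 0.0125). The sodium-proton exchanger SLC9A4 (4.76), the P-type transport ATPase ATP13A4 (4.40), the cationic amino acid transporter family member SLC7A4 (4.26) and the membrane-protrusion protein PROM2 (4.26) were also higher, each under 12 CPM on average in the high group. All 7 of these genes passed whichever library was left out. Without the 5 low-KTN1 libraries CRISP3 (log2 difference 4.14, adjusted p 0.213) and SLC9A4 (4.03, adjusted p 0.0743) missed the threshold, and LTF passed (5.05, adjusted p 0.0298).

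Genes of epithelial junctions and identity were the best represented list: 12 of its 18 tested genes were higher and 0 lower, with a median log2 difference of 2.48 against 0.02 over all genes. Over all genes tested, 1.0% were higher. Of 31 list genes in the table, these 18 passed the filter on low counts, which keeps a gene expressed in 1 group alone. Genes that reached its level in fewer than 6 libraries were dropped, which includes genes high in only part of the high group. This share and median, and those of the lists below, therefore depend partly on the filter. E-cadherin, CDH1, ran from 5.32 to 69.0 CPM (median 17.3) in the high group and from 0.285 to 4.73 CPM (median 1.06) in the low group, without overlap (log2 difference 3.89, SE 0.684, adjusted p 0.0144). EPCAM, the epithelial adhesion molecule, ran from 8.78 to 73.6 CPM (median 30.9) in the high group and from 0.0931 to 6.07 CPM (median 2.37) in the low group, again without overlap. Its log2 difference was 3.63 (SE 0.722, adjusted p 0.0302), and it missed the threshold without Sample_491, Sample_186, Sample_998, Sample_889, Sample_231 or Sample_176 (highest adjusted p 0.0794) and without the 5 low-KTN1 libraries (4.06, adjusted p 0.0865).

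Regulators of the epithelial state moved with the junctions. ESRP1, which directs epithelial splicing, was 4.27 higher on the log2 scale (SE 0.681, adjusted p 0.0107), at 21.7 ± 13.3 CPM in the high group and 1.22 ± 1.42 CPM in the low group. The transcription factors GRHL2 (3.66) and EHF (3.50), the desmosomal plakophilin PKP3 (3.86) and the tight-junction scaffold TJP3 (2.54) were higher too. So were the protease inhibitor SPINT2 (2.05), its protease target matriptase ST14 (1.83), CDS1 (2.43) and PRRG4 (1.39), though ST14 and CDS1 missed the threshold in 9 and 8 of the 12 fits that left out 1 library. The tight-junction gene CLDN4 did not follow them, at 68.9 ± 27.98 CPM in the high group and 108 ± 76.5 CPM in the low group (log2 difference −0.66, adjusted p 0.776). MAL2, a protein of apical transport, was at 79.8 ± 19.2 CPM in the high group and 69.4 ± 22.6 CPM in the low group (log2 difference 0.22, adjusted p 0.824). CLDN8 had a log2 difference of 3.67 and missed the threshold narrowly (adjusted p 0.0511). The list's count was 9 to 16 when 1 library was left out and 8 without the 5 low-KTN1 libraries.

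Summed over the 31 epithelial genes found in the table, the groups overlapped: 200 to 946 CPM (median 511) in the high group and 159 to 409 CPM (median 232) in the low group. Sample_391 of the high group had the lowest sum of its group, under those of every low library except Sample_991. The order of this sum was therefore not that of CPHL1. CLDN4 and MAL2, which did not follow CPHL1, averaged 108 and 69.4 CPM in the low group and hold much of its sums. A sum without CLDN4 and MAL2 was not taken, so the overlap does not show how total epithelial RNA went with CPHL1.

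Basal and myoepithelial genes were higher in 7 of 11 tested (14 in the table), with 0 lower and a median log2 difference of 1.81. Among all genes tested, 1.0% were higher and the median was 0.02. COL17A1, a collagen of hemidesmosomes, ran from 12.1 to 185 CPM (median 68.4) in the high group and from 0.747 to 10.8 CPM (median 2.29) in the low group, without overlap. Its log2 difference was 4.26 (SE 0.710, adjusted p 0.0125). TRIM29, a gene of basal epithelial cells, was 4.38 higher (SE 0.697, adjusted p 0.0107), and the basal keratin KRT15 was 3.91 higher (SE 0.828, adjusted p 0.0448). The laminin-332 chains LAMA3 (1.07) and LAMB3 (1.81) passed, but the calls of KRT15, LAMA3 and LAMB3 were lost in 9, 8 and 3 of the 12 fits that left out 1 library, whereas the integrins ITGB4 and ITGA6 had 0.11 and 0.29 (adjusted p 0.920 and 0.786).

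The contractile genes of the same list, which smooth muscle of vessels also expresses, were ACTG2 and CNN1. ACTG2, the enteric smooth muscle actin, ran from 24.8 to 388 CPM (median 177) in the high group and from 9.49 to 27.3 CPM (median 14.5) in the low group, and only Sample_391 of the high group fell inside the low range. Its log2 difference was 3.56 (SE 0.616, adjusted p 0.0143). CNN1, calponin, had a log2 difference of 1.93 (SE 0.383, adjusted p 0.0301) and missed the threshold in 8 of the 12 fits that left out 1 library. Of the 8 tested genes of smooth muscle and pericytes, CNN1 alone passed, while MYH11, smooth muscle myosin, had 1.94 (adjusted p 0.0720), ACTA2 had 1.13 (adjusted p 0.321) and TAGLN had 0.24 (adjusted p 0.858). Without the 5 low-KTN1 libraries 3 of these 8 passed. The basal list's own count was 3 to 7 when 1 library was left out and 6 without the 5 libraries.

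**Figure D2:**
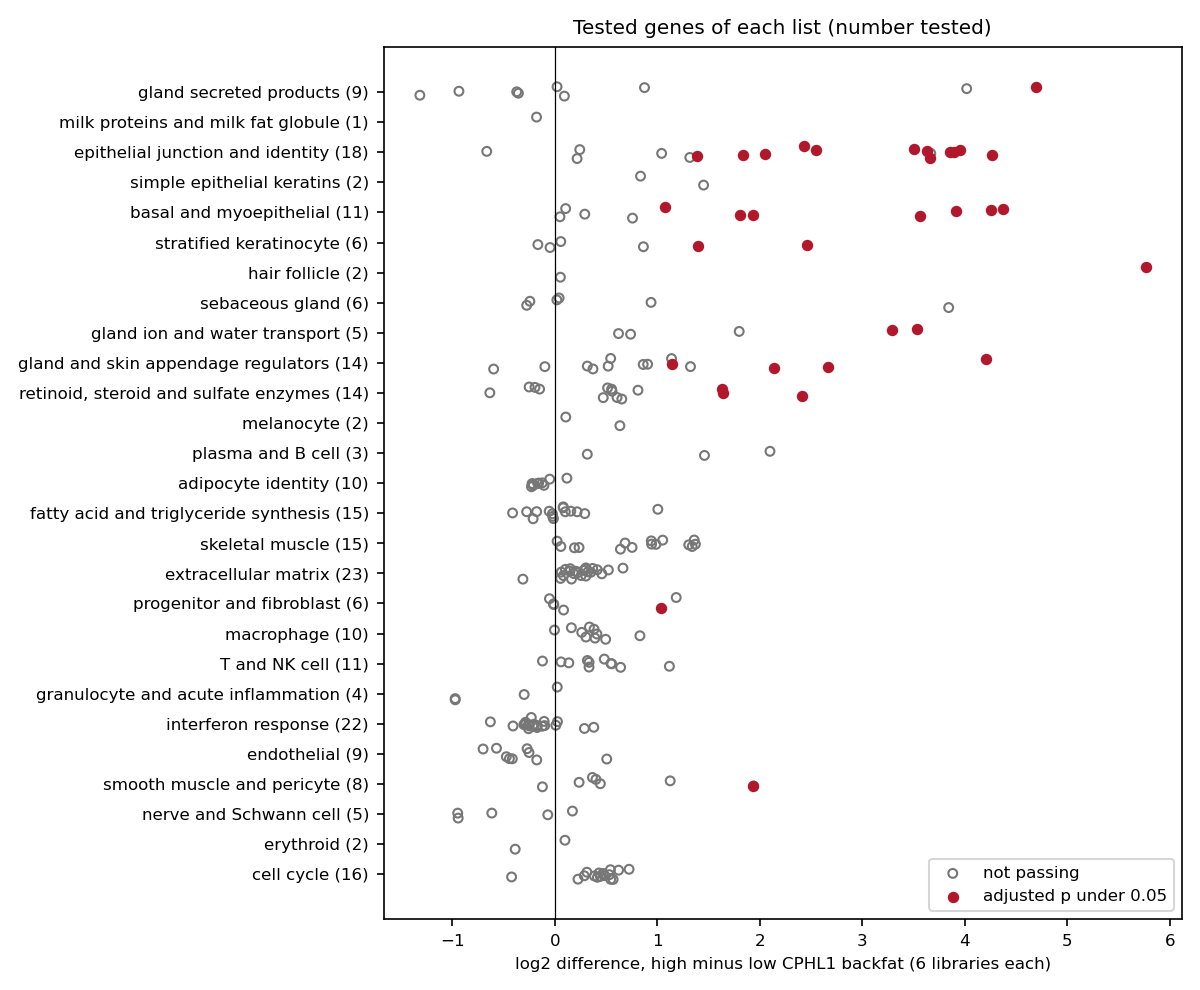
Log2 difference, high minus low CPHL1 backfat, of each tested gene of the 27 lists, with 6 libraries per group. Filled points passed an adjusted p of 0.05 and open points did not; the filled points lie in the epithelial, basal, gland, keratinocyte and hair lists and that of retinoid, steroid and sulfate enzymes, with DPP4 and CNN1 the exceptions among lists of other cell types.

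Regulators of glands and skin appendages were higher in 4 of 14 tested, with a median of 0.88, against 1.0% and 0.02 over all genes. They were the 3 AP-2 transcription factors TFAP2B, TFAP2C and TFAP2A, factors of epidermal and mammary epithelium, and CREB3L4, a membrane-bound factor of secretory cells. TFAP2B ran from 2.54 to 24.5 CPM (median 9.13) in the high group and from 0 to 2.06 CPM (median 0.248) in the low group, without overlap (log2 difference 4.20, SE 0.723, adjusted p 0.0127). TFAP2C was 2.67 higher, TFAP2A 2.14 and CREB3L4 1.14. SOX9 (1.14), ERBB3 (1.32) and GATA3 (0.91) had positive differences that missed the threshold, with adjusted p of 0.148, 0.0908 and 0.320. This list's count stayed at 4 or 5 when any 1 library was left out.

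Of 5 tested genes of gland ion and water transport, 2 were higher, against 1.0% of all genes tested. AQP5, the water channel of sweat and salivary glands, ran from 7.17 to 24.7 CPM (median 20.4) in the high group and from 0.320 to 4.37 CPM (median 1.73) in the low group, without overlap (log2 difference 3.29, SE 0.504, adjusted p 0.0105). The calcium channel TRPV6 was 3.53 higher (SE 0.527, adjusted p 0.00943). SCNN1A, a subunit of the epithelial sodium channel, had 1.80 (adjusted p 0.0645), and CFTR stayed at or under 0.232 CPM in all 18 libraries.

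Among enzymes of retinoid, steroid and sulfate metabolism, 3 of 14 were higher, with a median of 0.56, against 1.0% and 0.02 over all genes. SRD5A1, which makes dihydrotestosterone from testosterone, ran from 40.2 to 259 CPM (median 107) in the high group and from 11.99 to 35.2 CPM (median 20.2) in the low group, without overlap. It was 2.41 higher on the log2 scale (SE 0.393, adjusted p 0.0110). PAPSS2, which makes the sulfate donor, was at 141 ± 37.1 CPM in the high group and 46.2 ± 15.0 CPM in the low group (log2 difference 1.64, SE 0.194, adjusted p 0.00436). ALDH1A1, a retinaldehyde dehydrogenase, was 1.63 higher (SE 0.236, adjusted p 0.00927) and missed the threshold without the 5 low-KTN1 libraries (1.36, adjusted p 0.0652). Both of the other 2 passed there.

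Among secreted gland products, LTF alone passed of 9 tested, with CHIA not passing, and the list's median was 0.02. LYZ (0.09), LCN2 (0.02) and SAL1 (−0.93) had adjusted p of 0.978, 0.995 and 0.736, and PIGR, BPIFA1 and TFF3 were at or under 0.408 CPM in every backfat library. Milk proteins were near 0 too: CSN2 and LALBA had no count in any of the 18 libraries and CSN1S1 reached 0.240 CPM. The simple-epithelium keratins KRT8 (0.84, adjusted p 0.555) and KRT18 (1.45, adjusted p 0.0982) did not pass, though KRT18 passed without the 5 low-KTN1 libraries (1.80, adjusted p 0.0198).

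Hair keratins were high in some of the high CPHL1 libraries and not in others. KRT25, a keratin of the inner root sheath of the hair, had 134, 70.4, 268 and 81.3 CPM in Sample_491, Sample_242, Sample_998 and Sample_889 of the high group, yet 0.696 and 1.503 CPM in Sample_186 and Sample_391 of the same group, and 0.120 to 4.47 CPM (median 0.971) in the low group. Its log2 difference was the largest of the named genes at 5.76 (SE 1.22, adjusted p 0.0447), but it missed the threshold in 10 of the 12 fits that left out 1 library (highest adjusted p 0.113). Summed over 9 hair keratins, the range was 4.28 to 888.6 CPM in the high group, with Sample_186 (7.42 CPM) and Sample_391 (4.28 CPM) inside the low group's range of 1.92 to 13.8 CPM. Sample_77, Sample_911 and Sample_659 of the middle libraries had 590, 112 and 85.3 CPM, and the other 3 middle libraries 2.14 to 4.68 CPM. Keratins are a family of similar genes. The counts were deposited as unique, with ambiguous ones kept apart, but their steps of 0.5 are not explained, so the split among single keratins is uncertain. Of the 16 hair follicle genes in the table, 2 passed the filter on low counts, and the second, the stem-cell receptor LGR5, had a difference of 0.05 (adjusted p 0.987).

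**Figure D3:**
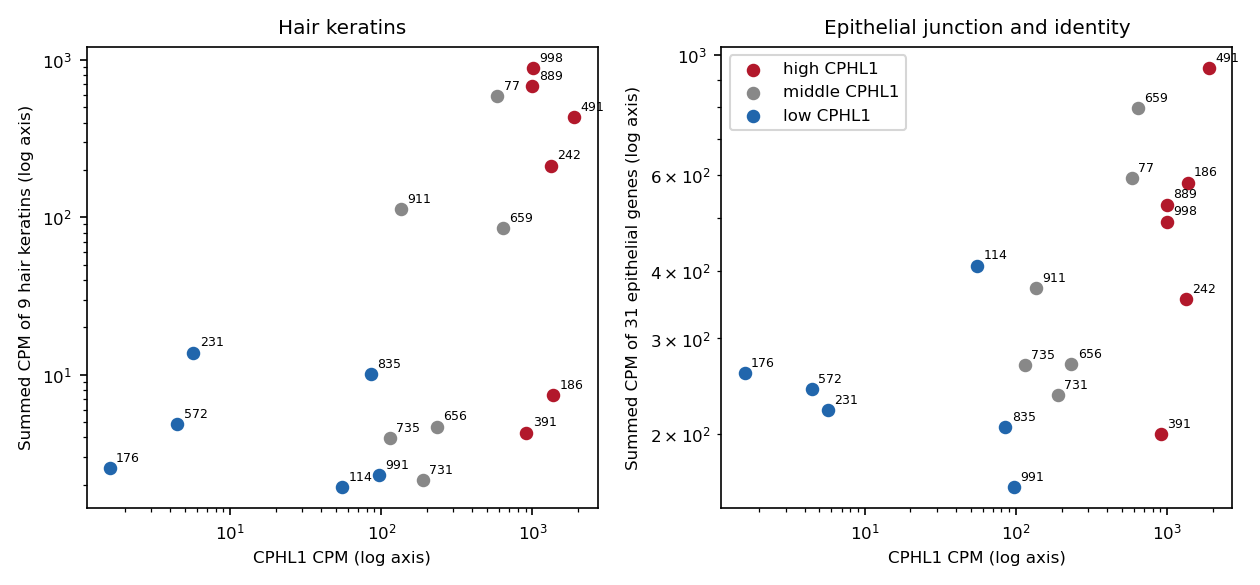
Summed CPM of 9 hair keratins (left) and of 31 epithelial genes (right) against CPHL1 CPM in the 18 backfat libraries, all axes logarithmic, with pig numbers beside the points. Sample_186 and Sample_391 have at least 912 CPM of CPHL1 with at most 7.42 CPM of hair keratins. The 31 epithelial genes include CLDN4 and MAL2, which did not follow CPHL1 and hold much of the low group's sums.

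Genes of the upper epidermis differed widely in level. KRT1, KRTDAP and CASP14 reached at most 2.96, 2.76 and 0.418 CPM in any backfat library, and CALML5 had no count. Of 6 tested genes of stratified keratinocytes, 2 were higher (over all genes, 1.0%): DSP, the desmosome linker desmoplakin, and EVPL, envoplakin. DSP ran from 49.8 to 377 CPM (median 188) in the high group and from 24.6 to 62.5 CPM (median 32.2) in the low group, where only Sample_391 of the high group fell under the highest low library. Its log2 difference was 2.46 (SE 0.391, adjusted p 0.0107), and that of EVPL was 1.39 (SE 0.273, adjusted p 0.0275), a call that was lost in 10 of the 12 fits that left out 1 library. DSG1, IVL and PKP1 were dropped by the filter, at 10.2, 4.71 and 7.53 CPM on average in the high group and 0.0686, 0.0519 and 0.234 CPM in the low group. PPL, periplakin, was at 190 ± 95.5 CPM in the high group and 202 ± 64.4 CPM in the low group (log2 difference −0.05, adjusted p 0.980). Sebaceous genes had 0 of 6 passing, and AWAT2, DGAT2L6 and MC5R, genes of sebaceous lipid and differentiation, were at or under 1.16 CPM in all 18 libraries.

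Cell types of fat itself showed little that passed. Of 10 adipocyte genes 0 passed, with a median of −0.16. PLIN1, which coats the lipid droplet, was at 686 ± 157 CPM in the high group and 810 ± 115 CPM in the low group (log2 difference −0.21, adjusted p 0.792). None of the 15 genes of fatty acid synthesis, 23 of the extracellular matrix, 10 of macrophages, 11 of T and NK cells, 22 of interferon response, 9 of endothelium or 16 of the cell cycle passed in either direction, with list medians between −0.41 and 0.46 (−0.49 to 0.98 without the 5 low-KTN1 libraries, where the extracellular matrix turned to −0.23). The endothelial adhesion gene ESAM, at −0.70 (adjusted p 0.504), went down with CPHL1 as a continuous measure over all 18 libraries (adjusted p 0.0116) and over the 13 (adjusted p 0.0488). Also with 0 passing were 3 genes of plasma and B cells (median 1.46), 5 of nerve and Schwann cells (−0.61) and 4 of granulocytes and acute inflammation (−0.63). Skeletal muscle genes had a median of 0.94 with 0 of 15 passing, a median that turned to −0.47 without the 5 low-KTN1 libraries, and their sum overlapped widely, at 501 to 19514 CPM in the high group and 308 to 9359 CPM in the low group. Its part in the other results was not tested, beyond a fit with ACTA1 as a covariate that called 212 genes higher. DPP4, a surface peptidase of adipose progenitors that some epithelia also make, was the exception at 1.03 (SE 0.220, adjusted p 0.0431), and missed the threshold in 9 of the 12 fits that left out 1 library.

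Between the high and low groups, no gene passed as lower in high CPHL1 backfat by edgeR, with 387 at an unadjusted p under 0.05 on that side and 11 called by DESeq2. The smallest adjusted p on that side was 0.105, for RNF227 (log2 difference −0.56, SE 0.142), at 11.3 ± 2.20 CPM in the high group and 17.1 ± 2.06 CPM in the low group. HPGD, which breaks down prostaglandins, had −0.99 (adjusted p 0.139), the angiogenic factor VEGFA −0.72 (adjusted p 0.176), and the caveolar genes CAVIN2 and CAV2 −0.64 and −0.55 (adjusted p 0.217 and 0.233). FAM167B had −0.87 (adjusted p 0.148). With CPHL1 taken continuously, RNF227 and FAM167B went down over 18 libraries (edgeR adjusted p 0.00391 and 0.00157) and over 13 (0.0285 and 0.00765). HPGD did so over the 18 alone (0.0205), and VEGFA, CAVIN2 and CAV2 in neither. DESeq2 called RNF227, FAM167B, HPGD and VEGFA lower between the groups, but not CAVIN2 or CAV2. With the KTN1 covariate none of them passed.

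The genes whose order over all 18 backfat libraries was most like that of CPHL1, by Spearman's rho and as a description over libraries that include those chosen by CPHL1, were SLC7A4 and TFAP2B (both 0.925) and POU2F3 (0.917), the transcription factor of tuft cells. ALDH1A1 and CRISP3 (both 0.913), C16orf89 (0.911; adjusted p 0.0569 without Sample_491 and 0.1002 without the 5 low-KTN1 libraries), EHF (0.907) and GREB1L (0.905) came next. POU2F3 ran from 10.4 to 50.1 CPM (median 29.9) in the high group and from 0 to 5.70 CPM (median 1.51) in the low group, without overlap, and was 3.82 higher (SE 0.637, adjusted p 0.0123). GREB1L was at 15.2 ± 4.12 CPM in the high group and 3.11 ± 1.42 CPM in the low group (log2 difference 2.34, SE 0.254, adjusted p 0.00436).

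The 6 libraries ranked between the groups took no part in choosing the 130 genes. In 121 of the 130 genes their mean lay between those of the high and low groups, and its median over genes was 66.5% of the high group's mean. The 130 were chosen for a higher level in the high group, which itself favors a mean between the groups. The share over all genes was not taken, so this count is a description. Within these 6 libraries, 12 of 13 genes tried (CHIA, LTF and the other leading genes) had a positive Spearman's rho with CPHL1, which ran from 114.4 to 640 CPM there, and 0 passed after Benjamini-Hochberg adjustment over the 13 by exact two-sided permutation, where the smallest possible p was 0.00278. The closest was TFAP2B (Pearson's r 0.904, exact permutation p 0.00694, adjusted 0.0903; rho 0.829, p 0.0583, adjusted 0.197). CHIA had r 0.715 (exact permutation p 0.121, adjusted 0.196) and rho 0.714 (p 0.136, adjusted 0.197), and LTF had rho −0.03 (p 1, adjusted 1). Without Sample_659 and Sample_77, the farthest from the median, r over the other 4 was negative for 9 of the 13 genes and positive for 4. It was −0.19 for CHIA, whose relation rested on those libraries, and 0.709 for TFAP2B.

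Muscle of the same pigs was free of the choice of groups. CPHL1 stayed between 0 and 2.20 CPM in 17 of 18 muscle libraries. Of 10609 genes tested there between the pigs of the high and low groups, 0 passed (0.00%) by edgeR, the smallest adjusted p was 0.0719, and 442 had an unadjusted p under 0.05. DESeq2 called 30 genes higher in muscle of the high group, and 0 of them were among the 130. Of the 130 backfat genes, 60 were at or under 1 CPM in every muscle library, a share not taken over all genes, and 38 were tested in muscle. Their median log2 difference in muscle was 0.03, against −0.02 over all genes tested there; 22 of the 38 were positive and 1 had an unadjusted p under 0.05.

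The difference between the tissues in the high minus low difference was tested itself, over the 24 libraries of both tissues. By edgeR 13 of 13447 genes had a larger difference in backfat than in muscle (0.0967%) and 1 had a smaller one, NAALAD2 (0.00744%), with 634 at an unadjusted p under 0.05. The pig numbers pair the libraries, and with the pig as a block the counts were 3 and 0. NAALAD2 averaged 0.839 and 0.198 CPM in muscle of the high and low groups, too low to be tested there. Its interaction was −2.83, while its backfat difference was −0.54 (adjusted p 0.398 by edgeR). RNF128, an E3 ubiquitin ligase, averaged 32.4 CPM in backfat of the high group and 6.14 CPM in backfat of the low group, and 23.2 and 22.4 CPM in muscle of the high and low groups. Its interaction was 2.43 (SE 0.365, adjusted p 0.00765; 0.0169 with the pig block). TP63, the master factor of basal epithelium, was dropped by the filter in the backfat comparison of high and low groups, so it was not tested there. It averaged 3.35 and 0.123 CPM in backfat of the high and low groups and 11.6 and 10.2 CPM in muscle of the high and low groups. Its interaction was 4.30 (SE 0.784, adjusted p 0.0294, and 0.0906 with the block). DSP had 2.42 (SE 0.441, adjusted p 0.0294; 0.175 with the block) and TFAP2A 2.15 (adjusted p 0.0468; 0.216 with the block).

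Of the 130 backfat genes, which were chosen on their backfat difference, a part of this contrast, 8 passed. With the pig as a block, RNF128 alone of these 8 passed (edgeR adjusted p 0.0169). In the fit without the block, no gene passed when Sample_176 was left out. The count of positive calls there was 1 to 3 without Sample_114, Sample_186, Sample_231, Sample_491, Sample_572, Sample_889, Sample_991 or Sample_998, 8 without Sample_835, 3 without the 5 low-KTN1 pigs, and 11 and 15 without Sample_242 and Sample_391.

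**Figure D4:**
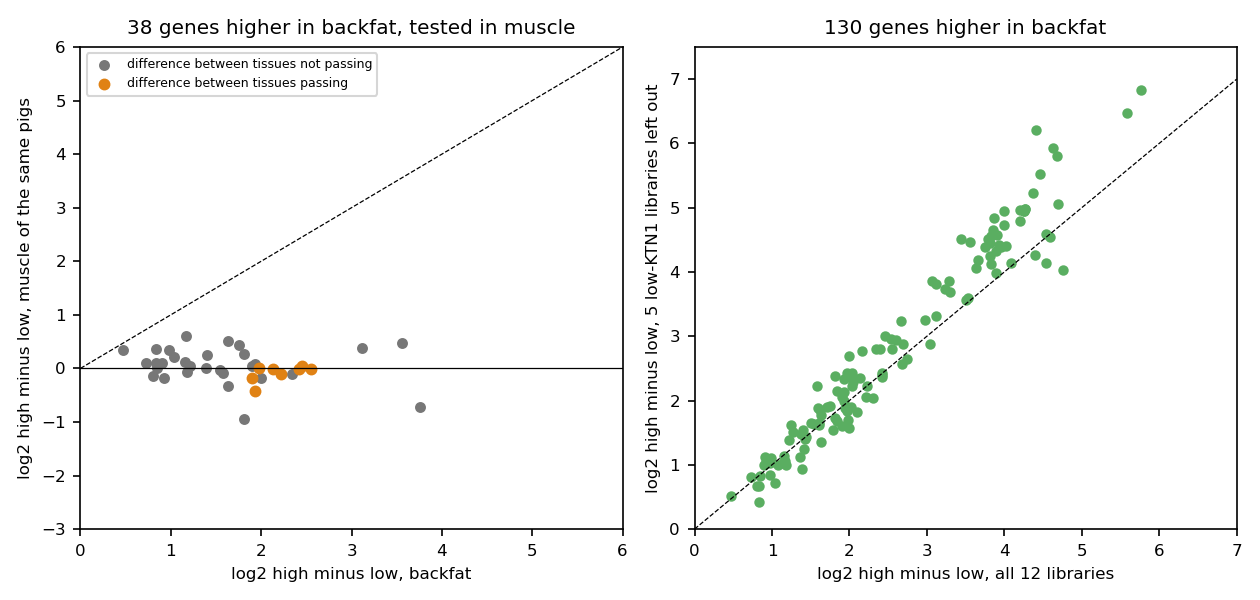
Left, log2 difference, high minus low CPHL1, in backfat and in muscle of the same pigs for the 38 of the 130 higher genes that were tested in muscle. Orange marks genes whose difference between tissues passed in the fit without the pig as a block, of which RNF128 alone passed with it. Right, the 130 genes with all 12 libraries and without the 5 low-KTN1 libraries; dashed lines mark equal values, the muscle differences lie around 0, and the backfat fits of the right panel share 7 libraries.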

How the data were processed

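Per the labels' protocols, MagMAX-isolated RNA went into TruSeq RNA libraries read from both ends (100 nt) on an Illumina instrument, with strand not stated. The authors deposited expected counts of 25322 Ensembl genes in steps of 0.5 (35.1% of values not whole), rounded here to whole numbers for tests. The tools were GSNAP and HTSeq, per the submitters' processing notes; build, annotation and the handling of shared reads: not given in the sources used here. Another 5 lines name no gene and stayed out. Counts outside genes made up 34.5% ± 5.60 in backfat and 19.9% ± 4.01 in muscle (SD, n = 18 each), and 0 columns went unused. Symbols (11804 of the IDs) came from a table of current names.

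Printed CPM use the sum over genes. Differences are high minus low log2 values from edgeR 4.0.16 (R 4.3.3) and its quasi-likelihood test (trimmed-mean factors, filterByExpr, robust fit), fitted over all genes with Benjamini-Hochberg adjustment and a threshold of 0.05; the SE is the difference over the square root of F. Fits were tested on simulated counts. Exact permutations and summaries used Python 3.11.15, SciPy 1.17.1, NumPy 2.4.6 and pandas 2.3.3, and figures Matplotlib 3.10.9. DESeq2 1.42.0 and limma 3.58.1 were also loaded, DESeq2 as an alternative.

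The groups, members, 27 gene lists and tests were chosen with earlier results of these data known. The rule for named genes took, among genes with a symbol, up to 12 per direction by size of difference among those passing with at least 5 CPM in the higher group (unfilled places by adjusted p), CPHL1, CHIA and LTF, up to 2 genes of highest mean CPM per list, and the 8 genes most like CPHL1. Other genes given here were chosen after their values were seen, and a few genes are not reported here by name. Each library is a separate animal, and a pig number stands for the same animal in both tissues, which pairs them: deviations of a pig's backfat and muscle libraries from their group means correlated at 0.245 on average (0.0899 to 0.385), against −0.0224 with other pigs' muscle.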

Additional observations from a re-analysis of the deposited data

Results flagged for a closer look

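In groups of 6, the highest or lowest library was set against Dixon's critical value (95%) for 158 gene and group pairs, and 8 passed it. Chance gives about 1 in 20, and the share that passed was near that, so the 8 are given as a description.

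In the high group, Sample_889 stood apart for LGR5 (1.32 CPM), LTBP1 (150 CPM) and LYVE1 (18.2 CPM), a marker of lymphatic vessels and some macrophages, and Sample_391 for CD2 (28.2 CPM), of T and NK cells, and PECAM1 (305 CPM), of endothelium. Each of these 5 was the lowest of its group. In the low group, Sample_991 stood apart for OAS2 (284 CPM), TAGLN (249.5 CPM) and TOP2A (233 CPM). None of these 8 genes passed between the groups by edgeR.

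DSP, the desmosome linker, differed between tissues in its high minus low difference, by 2.42 on the log2 scale (adjusted p 0.0294 by edgeR's interaction test). With the pig as a block the adjusted p was 0.175, and over the fits that left out 1 pig it ran from 0.00713 to 0.182.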

How the results depend on the processing

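No result changed direction past its threshold under any setting tried. The backfat count of 130 higher and 0 lower genes became 206 and 11 with DESeq2, 241 and 1 with no filter on low counts, 76 and 0 with library totals alone, 86 higher with the library total as a covariate, 296 and 66 with 4 against 4 libraries, 159 and 4 with all 18 libraries in 3 groups, and 336 and 43 with CPHL1 as a continuous measure over 18 libraries. It was 212 and 5 with an ACTA1 covariate. Settings chosen after seeing the data gave 200 and 0 without the 5 low-KTN1 libraries, 259 and 19 for the continuous measure over the other 13, and 8 and 0 with a KTN1 covariate, and which of KTN1 and CPHL1 goes with a gene cannot be told apart where 4 of 6 high libraries are low in KTN1. In the fit without the 5 low-KTN1 libraries, CPHL1 and hair keratin levels likewise cannot be told apart. Leaving out 1 library gave 74 to 209 higher and 0 to 8 lower genes. Factors by DESeq2's method gave 125, 9 against 9 libraries gave 143, and ranking by trimmed-mean CPM chose the same 12 libraries. Of the leading genes, LTF and SERPINB5 missed the threshold with 9 against 9 libraries.

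In muscle, 0 genes became 30 with DESeq2, 2 with no filter and 2 with library totals alone, and 0 to 4 when 1 pig was left out. The difference between tissues, 13 positive and 1 negative, became 2 and 0 with library totals, 3 and 0 without the 5 low-KTN1 pigs, and 0 to 15 positive and 0 to 1 negative when 1 pig was left out. The pairing of tissues by pig, as a replicate block, gave 3 positive and 0 negative genes, 2 of them among the 14. The cause of these changes was not tested. Depth limits genes near 1 CPM, where a library holds few reads, so calls on hair, epidermal and other epithelial genes rest on the filter.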

Other observations

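Several enzymes that break down aromatic amino acids, textbook liver enzymes, went with CPHL1 in backfat. These genes were chosen after their values were seen, so their count is a description. Of 11 tested of a set of 18, 3 were higher by edgeR: TDO2, tryptophan dioxygenase (log2 difference 4.002, SE 0.700, adjusted p 0.0153), TAT, tyrosine aminotransferase (4.03, SE 0.874, adjusted p 0.0493), and KMO, kynurenine monooxygenase (1.40, SE 0.306, adjusted p 0.04997). TDO2 ran from 29.7 to 125 CPM in the high group and from 0.107 to 12.1 CPM in the low group, without overlap. HPD, the next enzyme of tyrosine breakdown, had 3.81 (adjusted p 0.0819), with 0.308 CPM in Sample_491, the highest for CPHL1, and 10.1 to 30.6 CPM in the other 5 libraries of the high group. The set's median was 0.51, against 0.02 over all genes tested, of which 1.0% were higher. Without the 5 low-KTN1 libraries TDO2 (4.72, adjusted p 0.0616), TAT (4.41, adjusted p 0.157) and KMO (1.53, adjusted p 0.132) missed the threshold, and TAT and KMO were each lost in 9 of the 12 fits that left out 1 library.

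SCGB1D1, a secretoglobin, and PHEROC, a subunit of pheromaxein, the boar's salivary steroid carrier, were also chosen after their values were seen. PHEROC ran from 48.9 to 541 CPM in the high group and from 1.49 to 81.7 CPM in the low group (log2 difference 3.41, adjusted p 0.143 by edgeR). Its highest libraries were Sample_659 (1055 CPM) and Sample_77 (834 CPM), in the middle of the CPHL1 order. SCGB1D1 ran from 38.4 to 251 CPM in the high group and from 0.747 to 32.5 CPM in the low group (3.51, adjusted p 0.0634), again with its highest value in Sample_659 (500 CPM).

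The muscle library of Sample_176 held the most CPHL1 (8.31 CPM, 44.5 counts), CHIA (6.44 CPM) and LTF (2.71 CPM) of the 18 muscle libraries, while the backfat library of that pig held the least CPHL1 of all backfat libraries (1.60 CPM), with 1.92 CPM of CHIA and 1.49 CPM of LTF.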
